A study of Mus musculus with 4 samples.

Results

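Proximal B cell receptor kinases and adaptors were followed across 4 arrays of mouse B lymphocytes. The list holds 10 genes, chosen by their place in the first steps of receptor signalling: Syk, Lyn, Btk, Blk, Blnk, Bank1, Lax1, Plcg2, Ptpn6 and Pik3ap1. A gene was measured by the probe set that carried its symbol and no other. Of the 10 genes, 9 were found among 22180 named genes, each by 1 probe set. Lyn was not analysed here. All 9 passed a floor of 3.83 on the log2 scale, the median of all named signals, as did 12456 genes in all.

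The cells were B lymphocytes of C57BL/6 mice, sorted with an antibody to B220 (CD45R) from spleens, thymi and lymph nodes. They came from Tilcara (Til) mice, a mutant model of PKCbeta on this background, or from wild-type mice, and were either stimulated or not stimulated. Stimulated cells were kept for 4 hours with the phorbol ester PMA at 10 ng/mL and the calcium ionophore A23187 at 1 µM. The 4 groups were stimulated Tilcara (TIL_ST), non-stimulated Tilcara (TIL_NS), stimulated wild type (WT_ST) and non-stimulated wild type (WT_NS), with 1 array each. The kind of mutation, the age and sex of the mice and how many mice gave cells to an array are not stated in the labels.

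When antigen binds the B cell receptor, Src family kinases (Lyn and Blk among them) phosphorylate its signalling chains, and the kinase Syk docks there and becomes active. Syk then phosphorylates the scaffold Blnk (SLP-65), which holds the kinase Btk beside phospholipase C gamma 2 (Plcg2), and this enzyme makes the messengers that release calcium and activate protein kinase C. PMA stands in for one of these messengers and the ionophore lets calcium in directly, so the stimulus acts below the proteins described here.

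With stimulation, most of this machinery was lower in both genotypes. Taking the genotypes as the samples of each state (2 stimulated and 2 non-stimulated arrays), limma called 6 of the 9 genes as fallen at an adjusted p threshold of 0.05: Syk, Btk, Plcg2, Ptpn6, Blnk and Bank1. None was called as risen by limma, and 0 of the 9 rose at an unadjusted p under 0.05 either. Across all 12456 genes, 22.8% were called as fallen and 22.0% as risen. Blk, Pik3ap1 and Lax1 did not pass. The median log2 change of the 9 genes was −2.36, against 0.04 over all genes used. Without stimulation the 9 genes had median signals of 8.76 in Tilcara and 8.63 in wild type, against 5.65 and 5.63 over all genes used. They thus had more room to fall than most genes. In single arrays, 6 of the 9 genes were at least 2-fold lower in stimulated Tilcara cells than in non-stimulated ones, where 14.3% of all genes were, and 7 of the 9 in wild type, where 15.9% were. The gene that passed 2-fold in wild type and not in Tilcara was Lax1. In bulk RNA, fewer cells of a type and less RNA per cell cannot be told apart. The normalization evens out the distribution of signals between arrays before they are summarised per probe set, so these are changes relative to the other transcripts. The fit has 1 residual degree of freedom, and a gene passes where its response is large beside the gap between the genotypes' responses.

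**Figure D1:**
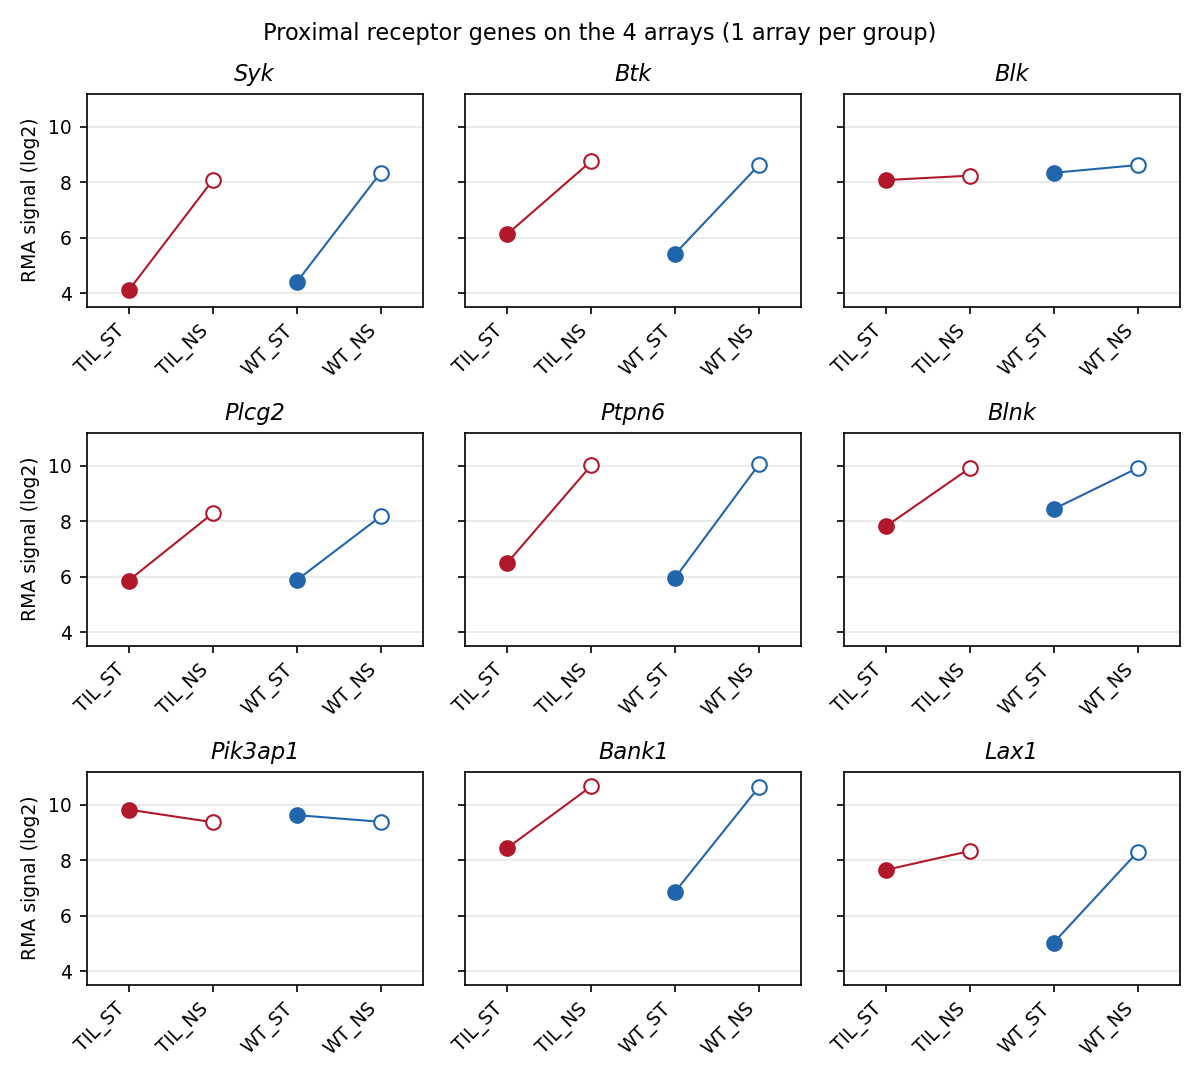
RMA signal (log2) of each of the 9 genes on the 4 arrays, Tilcara in red and wild type in blue, stimulated as filled and non-stimulated as open circles, with 1 array per group and no error bars. The lines of Syk and Ptpn6 are steep in both genotypes, those of Blk and Pik3ap1 are nearly level, and Lax1 is at 7.65 in stimulated Tilcara cells and at 5.03 in stimulated wild-type cells.

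Among the kinases, Syk, the first kinase to bind the phosphorylated receptor, had signals of 4.10 in stimulated and 8.07 in non-stimulated Tilcara cells, and of 4.39 in stimulated and 8.34 in non-stimulated wild-type cells. Both stimulated arrays lay far below both non-stimulated ones. Over both genotypes Syk fell 15.6-fold (limma, log2 change −3.96, SE 0.15, adjusted p = 0.00109). The responses of the genotypes were alike in size, at −3.97 in Tilcara and −3.95 in wild type.

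Btk, the Tec family kinase whose loss causes X-linked agammaglobulinaemia in humans, had signals of 6.13 in stimulated and 8.76 in non-stimulated Tilcara cells, and of 5.43 in stimulated and 8.63 in non-stimulated wild-type cells. Its stimulated arrays were again lower than its non-stimulated arrays. Btk fell 7.57-fold over both genotypes (limma, log2 change −2.92, SE 0.20, adjusted p = 0.00155).

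Blk, a Src family kinase of B cells, behaved differently from Syk and Btk by its values. It read 8.08 in stimulated and 8.24 in non-stimulated Tilcara cells, and 8.34 in stimulated and 8.62 in non-stimulated wild-type cells. All 4 signals lay within 0.54 of each other. The stimulation effect was −0.22 with an SE of 0.15 and was not called (limma, adjusted p = 0.295).

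Plcg2, the enzyme that turns a membrane lipid into the calcium-releasing messenger and diacylglycerol, had signals of 5.86 in stimulated and 8.28 in non-stimulated Tilcara cells, and of 5.87 in stimulated and 8.17 in non-stimulated wild-type cells. The genotypes were close in each state. Plcg2 fell 5.14-fold (limma, log2 change −2.36, SE 0.15, adjusted p = 0.00141).

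Ptpn6 encodes SHP-1, a tyrosine phosphatase that inhibitory receptors such as CD22 recruit to restrain the receptor. Its signals were 6.50 in stimulated and 10.02 in non-stimulated Tilcara cells, and 5.96 in stimulated and 10.06 in non-stimulated wild-type cells. With Syk it had the largest changes of the 9 genes. Ptpn6 fell 14.0-fold over both genotypes (limma, log2 change −3.81, SE 0.20, adjusted p = 0.00118).

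The adaptors did not move as a block. Blnk, the scaffold between Syk, Btk and Plcg2, had signals of 7.81 in stimulated and 9.92 in non-stimulated Tilcara cells, and of 8.44 in stimulated and 9.92 in non-stimulated wild-type cells. Its stimulated arrays were lower in both genotypes, more so in Tilcara. Blnk fell 3.47-fold (limma, log2 change −1.79, SE 0.21, adjusted p = 0.00418).

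Pik3ap1 encodes BCAP, an adaptor that brings PI3 kinase to the receptor, and its direction was opposite to that of the other 8 genes. It read 9.83 in stimulated and 9.37 in non-stimulated Tilcara cells, and 9.63 in stimulated and 9.39 in non-stimulated wild-type cells. The stimulated arrays were slightly higher, with a stimulation effect of 0.35 and an SE of 0.15 that was not called (limma, adjusted p = 0.137). With a variance prior that follows the mean signal, limma's adjusted p was 0.0264.

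Bank1, a B cell scaffold known to bind Lyn and the receptor of the calcium-releasing messenger, had signals of 8.44 in stimulated and 10.67 in non-stimulated Tilcara cells, and of 6.87 in stimulated and 10.65 in non-stimulated wild-type cells. It was lower after stimulation in both genotypes, by 4.68-fold in Tilcara and 13.8-fold in wild type. Bank1 fell over both (limma, log2 change −3.00, SE 0.40, adjusted p = 0.00578), with a wider SE than Syk because the responses were unequal.

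Lax1 encodes LAX, a transmembrane adaptor that limits antigen receptor signalling in mouse lymphocytes. Its signals were 7.65 in stimulated and 8.33 in non-stimulated Tilcara cells, and 5.03 in stimulated and 8.30 in non-stimulated wild-type cells. One array stands apart, stimulated wild type, which was 9.68-fold lower than non-stimulated wild type, while stimulated Tilcara was 1.60-fold lower than non-stimulated Tilcara. Over both genotypes the log2 change was −1.98 with an SE of 0.63 and was not called (limma, adjusted p = 0.0631). It was called after centring each array on its median (limma, adjusted p = 0.042), after cyclic loess (0.0239) and with the mean-dependent variance prior (0.0313).

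**Figure D2:**
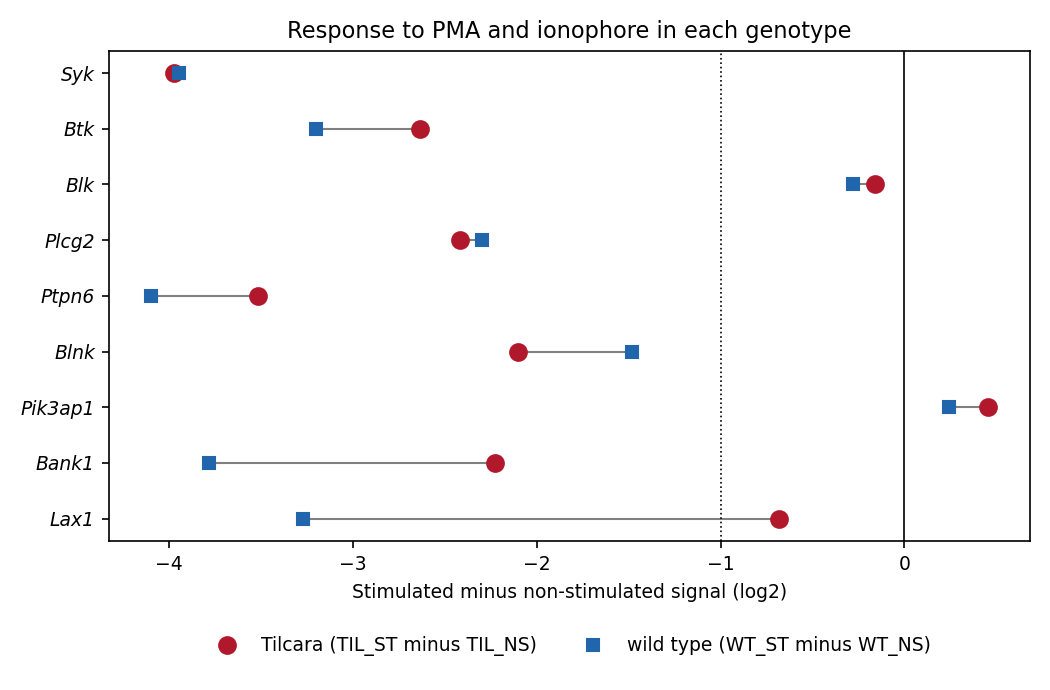
Stimulated minus non-stimulated signal (log2) of each gene, Tilcara as red circles and wild type as blue squares, 1 pair of arrays per genotype; the solid line marks 0 and the dotted line −1. The symbols nearly coincide for Syk (−3.97 in Tilcara, −3.95 in wild type) and lie farthest apart for Lax1 (−0.68 and −3.27 in the same order).

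Without stimulation the genotypes were nearly equal in this machinery. None of the 9 genes differed by 2-fold between non-stimulated Tilcara and non-stimulated wild-type cells, where 1.08% of all genes did. The absolute log2 difference had a median of 0.04 over the 9 genes, against 0.18 over all genes used. In these arrays the 9 genes stood between percentiles 88.6 (Syk in Tilcara) and 99.1 (Bank1) of signal, so most genes they are set against were dimmer. The largest were those of Blk, lower by 1.30-fold in Tilcara, and of Syk, lower by 1.21-fold. Blnk, Bank1, Pik3ap1, Lax1 and Ptpn6 differed by at most 0.043 in size.

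With stimulation, 2 of the 9 genes were at least 2-fold higher in Tilcara than in wild type, and none was 2-fold lower. The shares of all genes past 2-fold were 0.955% in the higher direction and 0.747% in the lower. Lax1 was 6.15-fold higher in stimulated Tilcara cells, the 4th highest difference of 12456 genes, and Bank1 was 2.98-fold higher, the 23rd. Btk (1.62-fold) and Ptpn6 (1.45-fold) were higher by less, and Blnk was 1.54-fold lower, the 1 gene of the 9 at least 1.5-fold lower, as 3.65% of all genes were. Syk, Blk, Plcg2 and Pik3ap1 differed by 0.30 or less on the log2 scale. The median absolute difference over the 9 genes was 0.54, while that over all genes was 0.18. No gene of the 9 passed for genotype over both states (limma, smallest adjusted p = 0.866), nor did any at an unadjusted p under 0.05. In this fit a genotype difference seen in 1 state only counts partly as error, so the fit cannot decide on Lax1 or Bank1. Their genotype effects were 1.32 with an SE of 0.63 and 0.79 with an SE of 0.40 on the log2 scale. Of all 12456 genes 0% were called for genotype, and 5.35% had an unadjusted p under 0.05. Each group is 1 array, so the genotype differences in one state have no replicate and no test.

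**Figure D3:**
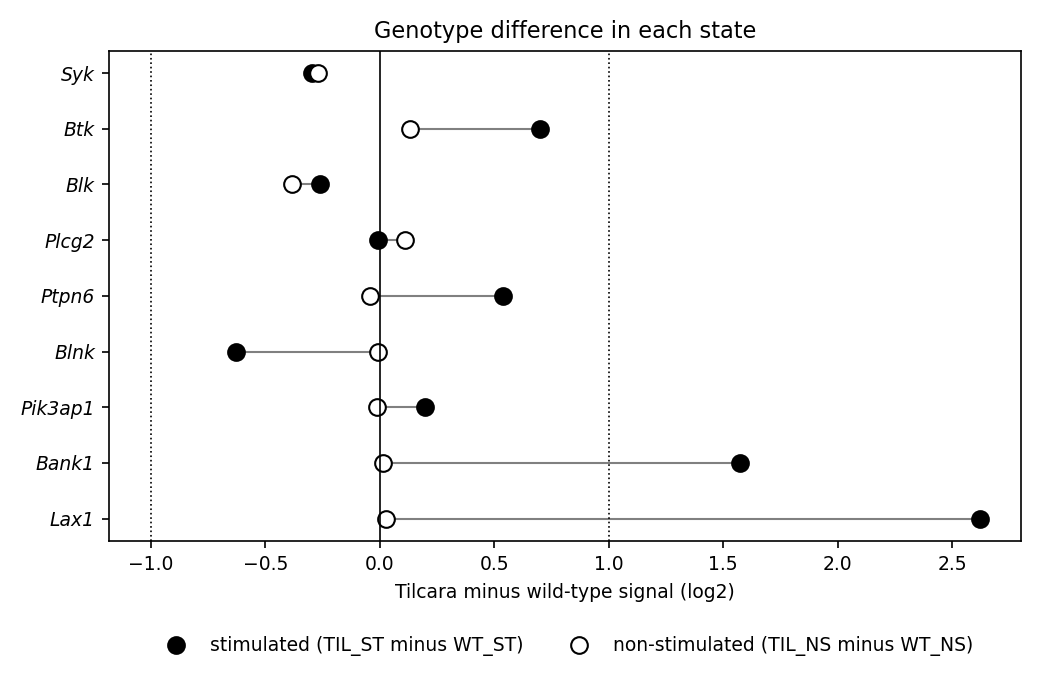
Tilcara minus wild-type signal (log2) of each gene, stimulated as filled and non-stimulated as open circles, 1 pair of arrays per state; dotted lines mark a 2-fold difference. All open circles lie between −0.38 and 0.13, and the filled circles of Lax1 and Bank1 lie at 2.62 and 1.57.

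**Figure D4:**
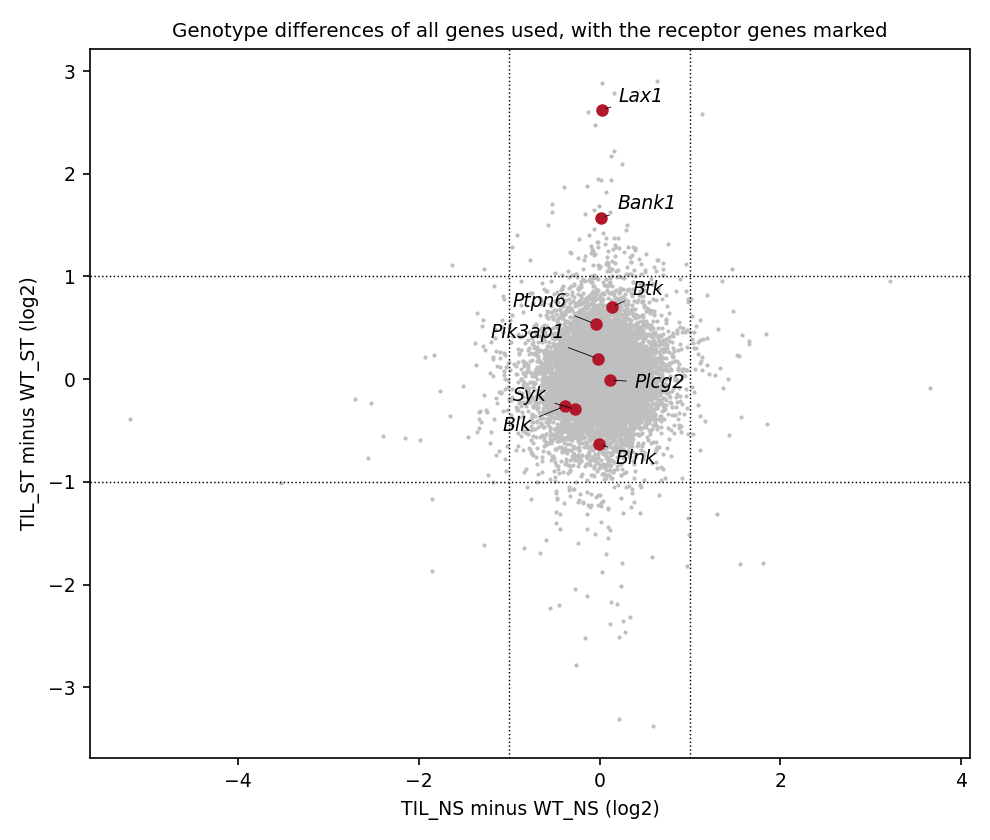
Tilcara minus wild-type signal (log2) without stimulation on the x axis and with stimulation on the y axis, for 12456 genes in grey and the 9 receptor genes in red; dotted lines mark a 2-fold difference. Lax1 and Bank1 lie above the upper dotted line near 0 on the x axis, and the other 7 genes lie inside the central square.

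The same arrays give the difference of the responses, Tilcara minus wild type, which was 2.59 for Lax1 and 1.56 for Bank1 on the log2 scale. These were the 6th and the 59th highest of 12456 genes, of which 2.32% reached 1. The difference was 0.58 for Ptpn6, 0.57 for Btk, 0.21 for Pik3ap1 and 0.12 for Blk, and it was −0.03 for Syk, −0.12 for Plcg2 and −0.62 for Blnk. Blnk was the 1 gene of the 9 with a difference at least 1.5-fold in the lower direction, as 8.05% of all genes had. The drop of Lax1 in Tilcara was 20.8% of its drop in wild type on the log2 scale, that of Bank1 58.8%, that of Btk 82.3%, that of Ptpn6 85.9%, that of Syk 100.6%, that of Plcg2 105.2% and that of Blnk 141.8%. Syk and Plcg2 thus had nearly equal drops in both genotypes, and Bank1 and Lax1 the most unequal ones. With 1 array per group this difference was not tested.

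RefSeq promoter sequence (GRCm38.p6) was at hand for 8 of the 9 measured genes, all but Blk. The 250 bases before the start are shown for Lax1, Bank1, Ptpn6 and Syk. Lax1 and Bank1 had responses at least 2-fold apart between the genotypes, and Ptpn6 and Syk had the largest drops over both genotypes. Lax1 lies on the minus strand of chromosome 1 (chr1:133690109-133690358), Bank1 on the minus strand of chromosome 3 (chr3:136326067-136326316), Ptpn6 on the minus strand of chromosome 6 (chr6:124738710-124738959) and Syk on the plus strand of chromosome 13 (chr13:52583187-52583436). Each is written 5′ to 3′ along the gene's own strand. For Lax1 and Syk, which have 2 listed starts each, the first listed is given. Capitals mark E-boxes, the letters CANNTG, which read the same on both strands and are bound by E proteins.
Lax1: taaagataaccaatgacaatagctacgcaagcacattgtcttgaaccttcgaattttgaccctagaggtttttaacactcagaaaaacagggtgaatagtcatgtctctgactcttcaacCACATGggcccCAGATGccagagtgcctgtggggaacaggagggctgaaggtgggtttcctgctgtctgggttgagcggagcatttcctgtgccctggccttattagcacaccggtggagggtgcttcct
Bank1: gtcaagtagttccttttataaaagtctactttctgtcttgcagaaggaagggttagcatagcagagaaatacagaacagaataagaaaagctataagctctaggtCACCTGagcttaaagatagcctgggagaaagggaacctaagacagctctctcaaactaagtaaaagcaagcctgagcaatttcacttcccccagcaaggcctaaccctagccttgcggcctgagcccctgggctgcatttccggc
Ptpn6: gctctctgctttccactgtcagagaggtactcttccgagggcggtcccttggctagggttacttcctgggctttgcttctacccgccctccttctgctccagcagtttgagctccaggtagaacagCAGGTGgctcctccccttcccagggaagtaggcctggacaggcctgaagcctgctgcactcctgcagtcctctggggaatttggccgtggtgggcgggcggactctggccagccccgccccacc
Syk: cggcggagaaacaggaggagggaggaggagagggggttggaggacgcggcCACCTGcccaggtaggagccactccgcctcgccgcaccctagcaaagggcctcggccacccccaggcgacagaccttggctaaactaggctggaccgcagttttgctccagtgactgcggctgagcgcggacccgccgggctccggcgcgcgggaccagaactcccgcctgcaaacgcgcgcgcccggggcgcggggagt
An E-box was found in this window in 8 of the 8 genes at the first listed start, against 66.2% of 32851 mouse promoter windows of the same length. Those of Bank1 and Syk read CACCTG, that of Ptpn6 reads CAGGTG, and Lax1 holds CACATG and CAGATG. The letters GAGGAA, the core bound by PU.1 and related ETS factors, were found on either strand in 1 of the 8 genes at the first listed start (Pik3ap1), against 23.3% of all windows. Over all listed starts 3 of the 8 genes held them, also at the second start of Syk and of Lax1. That count is per gene, with 2 windows for Syk and Lax1, so the share of single windows is no like measure for it. The octamer of B cell promoters, ATTTGCAT, was found in 1 of the 8 (Blnk), against 1.6%. No overlap of these motifs occurred in the 4 windows shown. All motifs were searched on both strands. A match describes these letters and is neither a binding site nor a cause.

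The rest of the pathway was described by 6 lists of other genes. Of their 67 genes used, 37 fell (55.2%) and 6 rose (8.96%) with stimulation by limma, beside the shares of all genes given above. In the antigen receptor and its coreceptors, 8 of 9 fell and none rose. Cd22, the inhibitory receptor that recruits SHP-1, fell 27.3-fold (limma, log2 change −4.77, SE 0.15, adjusted p = 0.00109). Siglecg, a relative of Cd22, fell 11.7-fold, and Cd79b, a signalling chain of the receptor itself, 11.7-fold. Pirb, another inhibitory receptor, fell 13.6-fold with both stimulated signals under the floor of 3.83. A fold that rests on signals under the floor is approximate.

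The other kinases of the Src, Tec and Syk families went both ways, with 2 risen, 2 fallen and 3 of 7 not called, and a median log2 change of 0.02. Fyn, a Src family kinase of lymphocytes, rose 8.42-fold (limma, log2 change 3.07, SE 0.15, adjusted p = 0.00109). It read 9.47 in stimulated and 6.39 in non-stimulated Tilcara cells, and 9.36 in stimulated and 6.30 in non-stimulated wild-type cells. Yes1, with signals below the floor in both non-stimulated arrays, rose 3.07-fold, while Fgr, a Src family kinase of myeloid cells and B cells, fell 2.78-fold with 1 array under the floor and Tec fell 2.53-fold. So among the measured Src family kinases Fyn and Yes1 rose, Fgr fell, and Blk and Src were not called.

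Of 16 other adaptors 7 fell, 1 rose and 8 were not called. Grap2, an adaptor best known from T cells, fell 13.1-fold, Themis2, an adaptor of B cells, 12.6-fold, Dapp1 (Bam32), which binds PI3 kinase products, 11.7-fold, and Pag1, which holds the kinase Csk at the membrane, 3.78-fold. Both stimulated signals of Dapp1, that of Grap2 in Tilcara and that of Pag1 in wild type lay under the floor. Among 12 phosphatases and negative regulators, 7 fell, 2 rose and 3 were not called. Inpp5d, the lipid phosphatase SHIP, fell 7.47-fold, the adaptor Dok3 6.70-fold and Csk, which switches Src family kinases off, 5.38-fold, while Ptpn22, a phosphatase that partners Csk, rose 7.80-fold (limma, adjusted p = 0.00624).

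In the PI3 kinase arm 4 of 9 fell, 1 rose and 4 were not called. Pik3cg, a catalytic subunit, fell 22.2-fold with both stimulated signals under the floor, and the regulatory subunits Pik3r1 and Pik3r5 fell 3.99-fold and 2.14-fold, while the kinase Akt1 rose 2.10-fold. Of 14 downstream effectors 9 fell and none rose. Rasgrp1, which activates Ras on diacylglycerol, fell 11.7-fold, the calcium channels of the internal store Itpr3 and Itpr2 6.21-fold and 5.95-fold, and the GTPase Rac2 6.02-fold. Prkcb, the gene of PKCbeta, had signals of 7.27 in stimulated and 9.39 in non-stimulated Tilcara cells, and of 7.28 in stimulated and 9.42 in non-stimulated wild-type cells, so its level does not separate the genotypes.

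**Figure D5:**
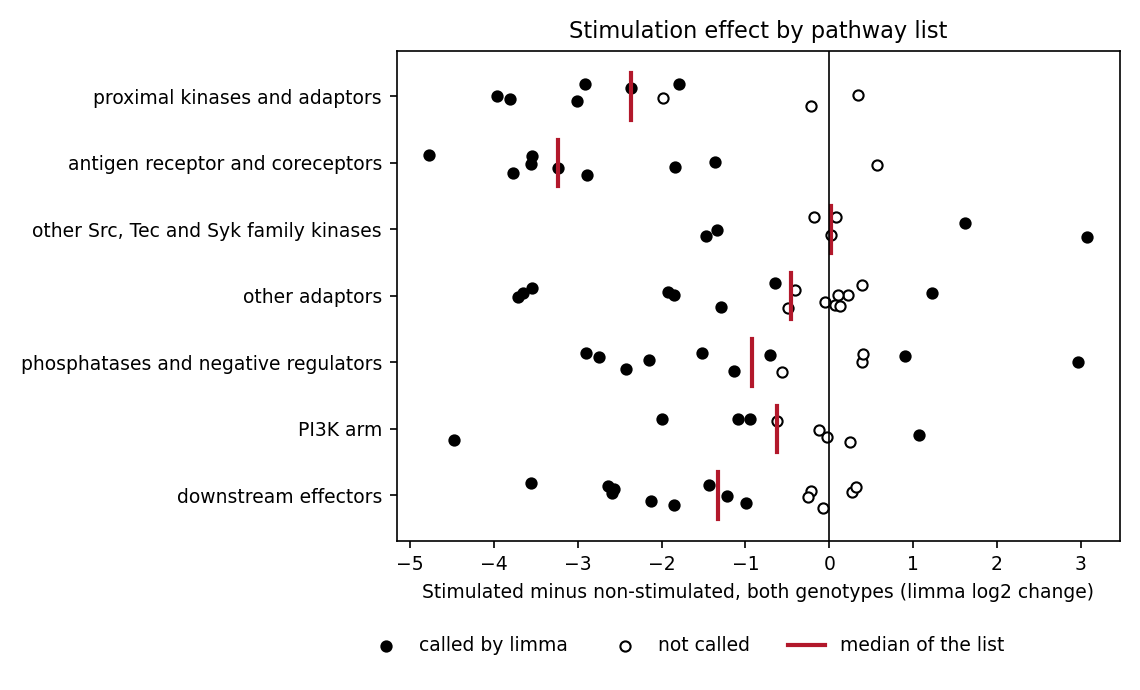
Stimulation effect over both genotypes (limma log2 change) of each gene used, by list; filled points were called at an adjusted p threshold of 0.05, open points were not, and red bars are list medians. The 9 proximal genes have a median of −2.36 and the receptor and coreceptor list one of −3.24, while the other kinases have a median of 0.02 with Fyn at 3.07.

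Across the 4 arrays, each gene's profile was centred on its own mean and set against 12447 other genes by Euclidean distance. The nearest to Lax1 was Mef2c, a transcription factor of B cells, at a distance of 0.42. Only 2 genes lay within 0.5 of Lax1 and 14 of Bank1, against 33 of Syk, 48 of Ptpn6, 98 of Btk, 203 of Blnk and 302 of Plcg2. Mef2c read 9.14 in stimulated and 10.25 in non-stimulated Tilcara cells, and 6.66 in stimulated and 10.31 in non-stimulated wild-type cells. That stimulated wild type stood lowest follows from picking Mef2c for its likeness to Lax1. The nearest gene to Bank1 was Ndc80 (0.24), to Syk Ncf4 (0.11), to Ptpn6 Pirb (0.10), to Btk Lynx1 (0.08), to Blnk Tnfrsf18 (0.10) and to Plcg2 Nsmce1 (0.04). The flat profiles of Blk and Pik3ap1 had 2956 and 4472 genes within 0.5, with Zc3hav1l (0.03) and Man1b1 (0.0079) nearest. Ndc80 and Pirb lay under the floor of 3.83 in both stimulated arrays, and Tnfrsf18 did in stimulated Tilcara cells. Zc3hav1l lay under it on all arrays but non-stimulated wild type. A match that rests on signals under the floor is approximate. A distance over 4 arrays is a description of these arrays.

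B cell markers lay above the floor on all 4 arrays and fell with stimulation. Cd79a, Cd79b and Cd22 among them were already counted in the antigen receptor and coreceptor list. The 5 measured of 7 (Cd79a, Cd79b, Ms4a1, Pax5 and Cd22) all fell by limma, and their summed linear signal was 1143 in stimulated and 7936 in non-stimulated Tilcara cells, and 745 in stimulated and 8183 in non-stimulated wild-type cells. Several receptor genes, among them Syk, Btk, Plcg2 and Ptpn6, are also used by myeloid cells. The 8 neutrophil markers summed to 50.7 in stimulated and 69.0 in non-stimulated Tilcara cells, and to 59.4 in stimulated and 779.6 in non-stimulated wild-type cells, where 6 of 8 lay below the floor. In both stimulated arrays all 8 lay below the floor. The 7 macrophage markers summed to 229 in stimulated and 128 in non-stimulated Tilcara cells, and to 198 in stimulated and 224 in non-stimulated wild-type cells. Within this list Cd68 rose by limma, while Lyz2 and Adgre1 fell and read 5.99 and 4.70 in non-stimulated wild type and at most 3.79 elsewhere. The 9 T cell markers summed to 96.6, 117, 127 and 212 in the same order of arrays, the 5 dendritic cell markers to 61.8, 76.8, 70.8 and 81.0, the 6 NK cell markers to 103, 274, 108 and 237 and the 3 plasma cell markers to 80.8, 88.0, 87.6 and 97.8. Of the T cell markers 7 of 9 lay below the floor in both stimulated arrays, and the others read 3.84 (Thy1) and 4.39 (Lat) in stimulated Tilcara cells, against 5.01 and 5.12 in stimulated wild-type cells. Without stimulation 7 of 9 lay below the floor in Tilcara and 2 of 9 in wild type, with Thy1 at 3.54 in Tilcara and 5.40 in wild type. The part of other cells in the results was not tested.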

How the data were processed

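Total RNA of 4 samples was hybridised to Affymetrix arrays after biotin labelling, per the labels. The authors deposited log2 signals of 41345 probe sets made with RMA, per the submitters' processing notes; its version and settings are not stated there. RMA values are background-corrected, quantile-normalized and summarised per probe set. By the platform annotation, 1 symbol belonged to 23521 probe sets, several to 1814 and none to 16010. Where a gene had several probe sets, the brightest stood for it. Groups came from the sample titles.

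R 4.3.3 with limma 3.58.1 fitted stimulation and genotype over the 4 arrays, with Benjamini-Hochberg adjustment over 12456 genes; rose and fell are its calls. Comparisons of 2 single arrays have no test and were counted at an absolute log2 difference of 1. The number of arrays limits the precision.

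The genes, lists and alternatives were chosen with earlier results of these data known. Named beside the 9 genes are up to 4 genes per pathway list with the largest stimulation effect, the nearest gene by profile, and Prkcb; others were chosen after their values were seen. Marker lists covered B, T, NK, dendritic and plasma cells, neutrophils and macrophages. Alternatives were array centring, cyclic loess, the mean over probe sets, no filter, a mean-dependent prior, a fit without the second factor and a 1.5-fold threshold. Protein sequences were not used here.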

Additional observations from a re-analysis of the deposited data

Results flagged for a closer look

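For 3 of the 9 genes the genotype difference had opposite signs in the 2 states, each state being 1 array per genotype, and none of these changes of sign was tested. Of all 12456 genes 47% had opposite signs. Ptpn6 was higher in Tilcara by 0.54 (log2) with stimulation, against −0.04 without it. Pik3ap1 differed by 0.20 with stimulation and by −0.01 without it. Plcg2 differed by −0.0087 with stimulation and by 0.11 without it. After centring each array on its median these 3 genes had 1 sign in both states, with Ptpn6 at 0.55 with stimulation and 0.01 without it, Pik3ap1 at 0.21 and 0.04, and Plcg2 at 0.0020 and 0.17 in the same order. Blnk then had opposite signs instead, as 46.5% of all genes did. After cyclic loess 4 of the 9 genes had opposite signs, these 3 and Bank1, as 48.3% of all genes did.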

How the results depend on the processing

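Under array centring and cyclic loess no fitted effect of the 9 genes and no difference of at least 2-fold reversed. The other alternatives could not turn a sign, since each gene has 1 probe set and keeps its coefficient. Small genotype differences crossed 0: without stimulation those of Bank1 (−0.05 to 0.07), Blnk (−0.06 to 0.05), Pik3ap1 (−0.08 to 0.04) and Ptpn6 (−0.09 to 0.01), and with stimulation that of Plcg2 (−0.04 to 0.0020). The counts of genes called kept within 1.5 times of the reported ones except in 3 cases. At a 1.5-fold threshold, 1 gene (Blnk) was lower in stimulated Tilcara than in stimulated wild type and 1 (Blnk) had a lower difference of responses. With a mean-dependent variance prior limma called 1 gene, Pik3ap1, as risen. That prior called 5940 of all 12456 genes in either direction, against 5576 in the reported fit. Array centring called 5691 of 12453 genes, cyclic loess 5783 of 12456 and the mean over probe sets 5668 of 12350. With no filter 5024 of 22180 were called. Syk, Btk, Plcg2, Ptpn6, Blnk and Bank1 were called as fallen under all 6 alternatives to the fit, Lax1 under 3 of 6 and Blk under 0 of 6. The difference of responses of Lax1 ranged from 2.55 to 2.59 and that of Bank1 from 1.51 to 1.57. No genotype effect of the 9 genes was called under any of 6 alternatives. In each of these 6 fits 0 of all genes were called for genotype, so the lack of calls is not particular to the 9. These fits too count a genotype difference seen in 1 state only partly as error. The reported fit compares the states within each genotype, and without its genotype term the same 6 genes were called as fallen. Without that term 5799 of all 12456 genes were called in either direction. No paired analysis by replicate number was possible because each group holds 1 array and the labels give no such numbers. No array could be left out for a test, and the deposited signals give no background level against which to set depth.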

Other observations

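Beside Lax1 and Bank1, 9 of the 67 pathway genes differed by at least 2-fold between the stimulated arrays, 7 higher and 2 lower in Tilcara, where 0.955% of all genes were higher and 0.747% lower by that size. Cd79b was 3.05-fold higher in stimulated Tilcara cells, Themis2 2.59-fold and Dok3 2.30-fold. Pag1 was also higher, at 4.50 in stimulated Tilcara cells, against 3.36 in stimulated wild-type cells, which is under the floor. Siglecg was 2.18-fold lower and Yes1 2.23-fold lower. Rasgrp3 (2.42-fold higher), which activates Ras on diacylglycerol, Vav3 (5.06 in stimulated Tilcara cells against 3.83, at the floor, in stimulated wild-type cells) and Sh3bp2 (8.09 in stimulated Tilcara cells against 7.09 in stimulated wild-type cells), an adaptor of Syk signalling, were named after their values were seen. Without stimulation 1 of the 67 genes differed by 2-fold, a share near the 1.08% of all genes; it was Ptpn22, at 6.64 in Tilcara and 7.72 in wild type. These are differences between single arrays with no test.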
